A study of Mus musculus with 4 samples.

Results

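The 10 genes described here belong to the arrest arm of the p53 response, with the cyclin-dependent kinase (CDK) inhibitor p21, encoded by Cdkn1a, at their centre, together with Gtse1, whose product opposes p53, and Cdkn1b, the relative of Cdkn1a that encodes p27. They are Cdkn1a, Btg2, Plk2, Plk3, Zmat3, Sesn1, Trp53inp1, Gtse1, Cdkn1b and Gadd45a. They were chosen by gene name with earlier results of these data known, so their shares beside those of all genes are a description. All 10 were found among the 56748 genes counted and were among the 16094 with enough counts to be tested. The count table came from small intestine (SI) tissue of WT (p53+/+) and p53-/- mice, 2 libraries per genotype, taken 1 day after 12 Gy total-body irradiation (TBI) from a Cs-137 source. Mice were bought from the Jackson Laboratory and were used at 8 to 12 weeks of age, matched for age and gender. p53-/- mice lack p53 in every cell, so the epithelium, the immune cells and the stroma of the tissue were all deficient. No unirradiated SI was part of the comparison, so every difference below is between genotypes after TBI and none is a response to TBI. The libraries are called by the numbers of their columns, 7 and 8 for WT and 9 and 10 for p53-/-, and these numbers pair no animals.

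p53 is a transcription factor that is stabilised when DNA is damaged and binds paired copies of a short element, the p53 half-site, near its target genes. p21 binds and inhibits cyclin-CDK complexes, which keeps the retinoblastoma protein active and E2F targets silent, so the cell halts before S phase or before mitosis. In the crypts of the SI, where stem cells and their daughters divide rapidly, p53 governs both this arrest and the death of cells after irradiation. Several of the other genes act beside p21: Btg2 as an antiproliferative cofactor of mRNA decay, Plk2 and Plk3 as stress-responsive polo-like kinases, Gadd45a as an inhibitor of CDK1-cyclin B, and Gtse1 as a G2 protein that can bind p53 and p21. Cdkn1b encodes p27, the closest relative of p21, whose amount is controlled mainly at the level of protein turnover.

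The sequences around the transcription start sites are shown first, because p53 half-sites lie close to the start of only some of these genes. RefSeq promoter windows (GRCm38.p6, 250 bases before to 50 after the start) were at hand for 8 of the 10 genes, in 11 windows, and none was used for Zmat3 and Trp53inp1. Both strands were searched for the p53 half-site, and matches were found in 4 of the 8 genes, while 8.36% of all 32841 windows held one. A second half-site within 13 bases, with at most 1 mismatch, stood beside the match in 2 of them, Cdkn1a and Gtse1, against 0.627% of all windows. Here and below the members are counted per gene but the background per window, so the shares are not in like units. Cdkn1a, Sesn1 and Gtse1 had 2 windows each and thus more sequence searched than genes with 1. In the stretches that follow, written 5′ to 3′ on the strand of the gene, capitals mark the half-sites, and for Cdkn1a and Gtse1 also their partners.
Cdkn1a, chr17:29090876-29090977, plus strand: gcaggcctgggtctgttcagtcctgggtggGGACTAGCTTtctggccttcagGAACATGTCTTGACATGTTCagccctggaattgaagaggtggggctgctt
Gtse1, chr15:85859915-85859975, plus strand: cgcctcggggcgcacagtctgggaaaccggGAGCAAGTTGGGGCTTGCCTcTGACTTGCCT
Sesn1, chr10:41887236-41887305, plus strand: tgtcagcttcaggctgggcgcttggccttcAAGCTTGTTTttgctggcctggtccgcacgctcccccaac
Gadd45a, chr6:67037408-67037477, minus strand: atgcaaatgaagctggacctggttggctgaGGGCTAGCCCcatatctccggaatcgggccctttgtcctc
The half-sites of Cdkn1a begin 73 and 51 bases before the start of its upstream transcript, and the second is directly followed by its partner. The window of the other Cdkn1a start site, 2790 bases downstream, held no half-site. In Gtse1 the match begins at base 10 after the start of its downstream transcript, with a partner directly before it and another 1 base after it. Sesn1 and Gadd45a each held a single half-site with no partner, 173 and 40 bases before the start. The windows of Btg2, Plk2, Plk3 and Cdkn1b held none, which says only that these letters are not in those windows. The CCAAT box (CCAAT on either strand) was found in 5 of the 8 genes, Btg2, Sesn1, Gtse1, Cdkn1b and Gadd45a, and in 37.4% of all windows. No member window held the TATA box (TATAAA, 13.6% of all windows) or the cell cycle homology region (TTTGAA, 17.9%), again on either strand.

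The level of a gene is its CPM, the count after every library is brought to equal size with TMM factors. A difference is given as the log2 fold change of p53-/- over WT from edgeR's quasi-likelihood test, in which p-values are adjusted by the Benjamini-Hochberg method over all genes tested. Totals were between 15005479 and 22173164 counts per library. Trp53, the targeted gene, was at 57.7 and 47.1 CPM in WT and at 19.8 and 22.5 CPM in p53-/-. Its log2 fold change was -1.31 with a standard error (SE) of 0.188 (adjusted p = 0.0602 with edgeR and 4.30e-05 with DESeq2). Reads on Trp53 thus remained in the libraries labelled p53-/-, below both WT libraries. Ribosomal RNA genes took 4.59% of the counts of library 10 and between 0.296% and 0.863% of the other libraries. The 10 epithelium markers were all detected. Their summed level was 21950 to 29560 CPM in WT and 16552 to 19765 CPM in p53-/-. In both p53-/- libraries 9 of 10 were lower (24.4% of all genes tested). As lower, 0 passed in edgeR and 3 in DESeq2 (0.193% and 3.50% of all genes). Markers of other cells also differed between genotypes, while 26.4% of all genes tested were higher in both p53-/- libraries. Higher in both were 10 of 10 T cell markers (summed 8.42 to 16.9 CPM in WT and 78.8 to 149 in p53-/-, Cd8b1 at 0 in both WT libraries). So were 7 tested of the 8 B cell markers given here (2.17 to 3.05 and 24.9 to 487 CPM, the last in library 10, with Pax5, Fcer2a and Blk at 0 in WT). The same held for 6 of 7 macrophage markers (59.8 to 125 and 172 to 539 CPM). The last was library 10, where Lyz2 was at 411 CPM against 53.2 CPM in library 9. In edgeR 0 of these markers passed as higher (0.298% of all genes). In DESeq2, 10 T cell, 5 B cell and 1 macrophage marker passed as higher (5.05% of all genes). The 5 tested of 6 adipocyte markers were lower in both p53-/- libraries (37.6 to 63.3 and 4.12 to 6.07 CPM, Plin1 at 0 in p53-/-), as were 24.4% of all genes. Of these markers, 2 passed in edgeR and 5 in DESeq2 (0.193% and 3.50% of all genes). Both tested of 5 red blood cell markers were higher in both p53-/- libraries (0.619 to 1.43 and 2.28 to 5.97 CPM, 26.4% of all genes), and neither passed in either tool. In bulk tissue, fewer cells of a type and less RNA per cell cannot be told apart, and the part of these markers in the differences below was not tested.

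The arrest genes as a group stood below their WT level in the p53-/- SI, led by Plk2, Zmat3 and Cdkn1a. Plk3 had a fitted log2 fold change of -1.94, but it was -1.02 without library 8. Sesn1 and Cdkn1b were at nearly the same level in both genotypes. In 8 of the 10 genes both p53-/- libraries lay below both WT libraries, as they did in 24.4% of all genes tested. In 1 gene, Cdkn1b, they lay above, as in 26.4% of all genes, and in Sesn1 the genotypes overlapped. By edgeR with adjustment, 2 of 10 fell (Plk2 and Zmat3; 0.193% of all genes) and 0 rose (0.298% of all genes). At an unadjusted p under 0.05 there were 6 lower (7.92% of all genes) and 0 higher (10%). With DESeq2, 5 of 10 passed as lower, namely Cdkn1a, Plk2, Plk3, Zmat3 and Gtse1 (3.50% of all genes), and 0 as higher (5.05%). The median log2 fold change of the 10 genes was -1.03, against -0.01 over all genes tested. With 1 library left out, the log2 fold change ran from -3.34 to -2.44 for Plk2 and from -1.71 to -1.66 for Zmat3. The number of calls changed with the library left out, among all genes as well as the members. With the libraries scaled to the epithelium markers, 0 of 10 passed in edgeR, while of all 16094 genes 16 passed as lower and 133 as higher. At an unadjusted p under 0.05 under this scaling, 4 of 10 were lower and 0 higher. Of all 16094 genes, 3554 passed in either direction. That number was not split by direction, so no share of genes lower stands beside the 4. The log2 fold changes under this scaling were -2.54 for Plk2, -1.21 for Zmat3 and -0.95 for Cdkn1a, with a median of 0.48 over all genes.

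**Figure D1:**
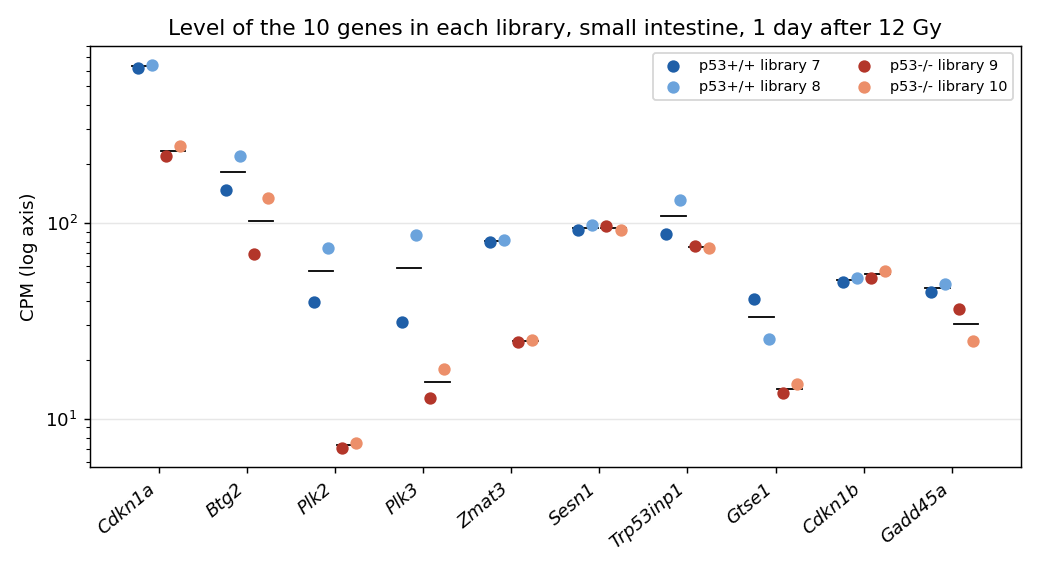
The level of each of the 10 genes in CPM (log axis) in the 4 libraries, with a horizontal line at the mean of each genotype. The p53-/- points of Cdkn1a, Plk2 and Zmat3 sit well under the WT points, while the 4 points of Sesn1 lie between 91.4 and 97.6 CPM. Those of Plk3 (12.8 and 17.9 CPM) lie under WT points that are far apart (31.0 and 86.9 CPM).

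p21 is the effector that the pathway is best known for. Cdkn1a (ENSMUSG00000023067) was at 620 and 640 CPM in libraries 7 and 8, against 221 and 246 CPM in libraries 9 and 10. Both p53-/- values were far below both WT values, and replicates of a genotype were close to each other. The log2 fold change was -1.43 (SE 0.202, 95% interval -1.94 to -0.93), a 2.70-fold lower level, which missed the edgeR threshold (adjusted p = 0.0592) and passed in DESeq2 (adjusted p = 5.25e-11). It also passed in edgeR without library 7 (adjusted p = 0.0396) or without library 8 (adjusted p = 0.0314), each of which leaves 1 WT library, and did not pass without library 9 (adjusted p = 0.250) or library 10 (adjusted p = 0.426). Cdkn1a remained the member with the highest level per length in p53-/-. Expressed as CPM per kilobase of exon, it was at 177 ± 3.99 in WT and 65.7 ± 5.03 in p53-/- (SD, n = 2).

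The gene of p27 was at a close level in both genotypes. Cdkn1b (ENSMUSG00000003031) was at 50.1 and 52.2 CPM in WT and at 52.6 and 56.6 CPM in p53-/-, so both p53-/- libraries were slightly higher. The log2 fold change of 0.09 (SE 0.146) had a 95% interval from -0.27 to 0.46 and did not pass (adjusted p = 0.802, edgeR). A ratio of the counts of 2 genes within a library needs no scaling between libraries, and there were 12.4 and 12.3 Cdkn1a counts for each Cdkn1b count in WT and 4.20 and 4.35 in p53-/-. The log2 ratio differed by -1.53 between genotypes, with SDs of 0.008 in WT and 0.036 in p53-/- (exact permutation test, two-sided, p = 0.333, the smallest that 2 against 2 libraries allow). The ratio of Cdkn1a to Mdm2, which encodes the ubiquitin ligase that degrades p53, was 5.14 and 4.20 in WT and 4.50 and 4.52 in p53-/-. Its log2 difference was -0.04 (exact permutation test, two-sided, p = 1), as Mdm2 itself had a log2 fold change of -1.40 (SE 0.189). Mdm2 missed the edgeR threshold (adjusted p = 0.0569) and passed in DESeq2 (adjusted p = 6.30e-07).

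The polo-like kinases Plk2 and Plk3 are stress-induced relatives of the mitotic kinase Plk1. Plk2 (ENSMUSG00000021701) had the most negative log2 fold change of the 10 genes. It was at 39.4 and 74.2 CPM in WT and at 7.06 and 7.51 CPM in p53-/-, so the WT libraries differed from each other 1.89-fold but both lay far above p53-/-. Plk2 fell by 2.96 on the log2 scale (SE 0.348, adjusted p = 0.0494, edgeR), a 7.79-fold lower level. The adjusted p in edgeR was 0.103 without library 9 and 0.417 without library 10, with log2 fold changes of -2.92 and -2.96. The call was close to the threshold and was also lost with RLE factors, upper-quartile factors, library size only, the epithelium scaling, at least 10 counts in every library or the 50 most abundant genes left out, with adjusted p from 0.0556 to 0.0733 in edgeR. Plk3 (ENSMUSG00000028680) was at 31.0 and 86.9 CPM in WT and at 12.8 and 17.9 CPM in p53-/-. Its WT libraries differed 2.80-fold, the widest gap within a genotype among the 10 genes. The log2 fold change of -1.94 (SE 0.507) did not pass in edgeR (adjusted p = 0.155) and passed in DESeq2 (adjusted p = 0.00133), and it was -1.02 without library 8 (adjusted p = 0.0934, edgeR) and -2.50 without library 7, where it passed in edgeR (adjusted p = 0.0101). The Plk2 to Plk3 count ratio was 1.27 and 0.854 in WT and 0.551 and 0.421 in p53-/- (log2 difference -1.11, exact permutation test, two-sided, p = 0.333).

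Zmat3, a zinc finger protein that binds RNA and regulates splicing and mRNA stability, had the tightest replicates of the called genes. Zmat3 (ENSMUSG00000027663) was at 79.9 and 81.9 CPM in WT and at 24.6 and 25.3 CPM in p53-/-. The genotypes were separated by far more than the gap between replicates. Zmat3 fell by 1.70 on the log2 scale (SE 0.146, 95% interval -2.06 to -1.33, adjusted p = 0.0282, edgeR), a 3.24-fold lower level. The adjusted p in edgeR was 0.0896 without library 9 and 0.306 without library 10, with log2 fold changes of -1.68 and -1.66.

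Sesn1 encodes a sestrin, which restrains the growth kinase mTORC1 when leucine is scarce or cells are stressed. Sesn1 (ENSMUSG00000038332) was at 91.4 and 97.6 CPM in WT and at 96.2 and 91.7 CPM in p53-/-, and the genotypes overlapped fully. The log2 fold change was -0.01 (SE 0.152, adjusted p = 0.986, edgeR), with a 95% interval from -0.39 to 0.37, and its sign changed with the scaling, to 0.47 when scaled to the epithelium markers. Its paralog Sesn2 was at 54.2 and 52.6 CPM in WT and at 16.7 and 12.6 CPM in p53-/-, and fell by 1.86 on the log2 scale (SE 0.205, adjusted p = 0.0444, edgeR). Within a library there were 0.593 and 0.539 Sesn2 counts for each Sesn1 count in WT and 0.174 and 0.138 in p53-/- (log2 difference -1.87, exact permutation test, two-sided, p = 0.333), a ratio added after the values were seen. The Zmat3 to Sesn1 ratio was 0.874 and 0.840 in WT and 0.256 and 0.276 in p53-/- (log2 difference -1.69, exact permutation test, two-sided, p = 0.333). The third sestrin gene, Sesn3, was at 16.5 and 21.8 CPM in WT and at 32.7 and 49.0 CPM in p53-/- (log2 fold change 1.09, adjusted p = 0.145 with edgeR and 0.0222 with DESeq2).

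**Figure D2:**
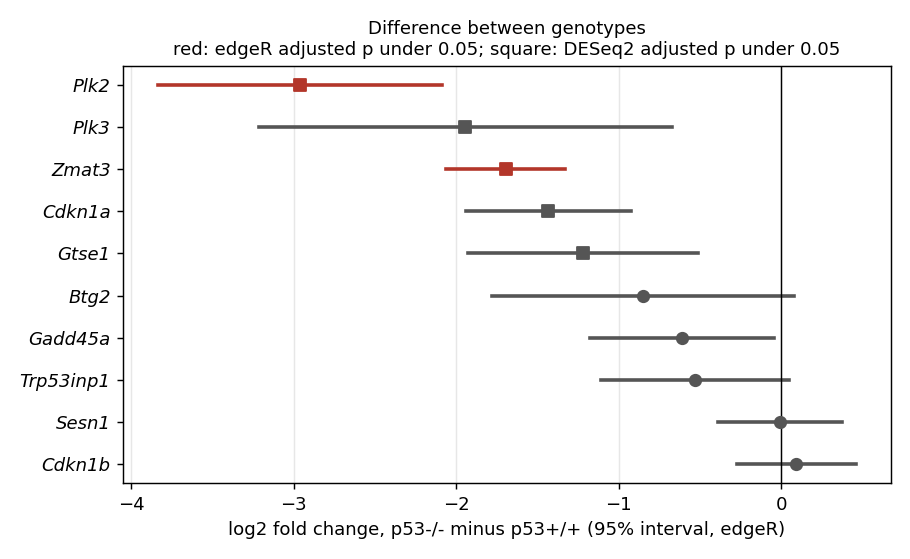
The log2 fold change (p53-/- over WT) of each of the 10 genes with its 95% interval from edgeR. Red marks an edgeR adjusted p under 0.05 (Plk2, Zmat3), a square a DESeq2 adjusted p under 0.05, and the intervals of Btg2, Trp53inp1, Sesn1 and Cdkn1b span 0.

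Gtse1, whose product is made in G2 and moves p53 out of the nucleus, was lower in p53-/- although other G2 genes were higher there. Gtse1 (ENSMUSG00000022385) was at 40.6 and 25.5 CPM in WT and at 13.5 and 15.0 CPM in p53-/-. All p53-/- values were under the WT values. The log2 fold change was -1.22 (SE 0.282), which did not pass in edgeR (adjusted p = 0.132) and passed in DESeq2 (adjusted p = 0.00707). It was -1.52 without library 8, where it passed in edgeR (adjusted p = 0.0237), and -0.68 with the epithelium scaling. In contrast, the 25 G2 and mitosis genes listed, such as Top2a, Mki67 and Aurka, all stood higher in both p53-/- libraries (26.4% of all genes). Their summed level was 589 and 380 CPM in WT and 1143 and 1275 CPM in p53-/-. Their log2 fold changes ran from 0.89 for Cdk1 to 1.73 for Cenpf with a median of 1.33, and 0 of 25 passed in edgeR after adjustment. All 25 were higher at an unadjusted p under 0.05 (10% of all genes), and 23 passed as higher in DESeq2 (5.05% of all genes). Plk1 was at 0.96, and Kif20a at 1.72, on this log2 fold change scale. In a ratio added after the values were seen, Gtse1 had 6.89 and 6.70 counts per 100 counts of these genes in WT and 1.18 and 1.17 in p53-/-. The log2 difference was -2.53, with SDs of 0.028 and 0.003, and the replicates of Gtse1 in this ratio were closer than in CPM (exact permutation test, two-sided, p = 0.333, the smallest possible). Library 8 held both the lower Gtse1 level and the lower summed level of the G2 and mitosis genes of the WT pair.

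**Figure D3:**
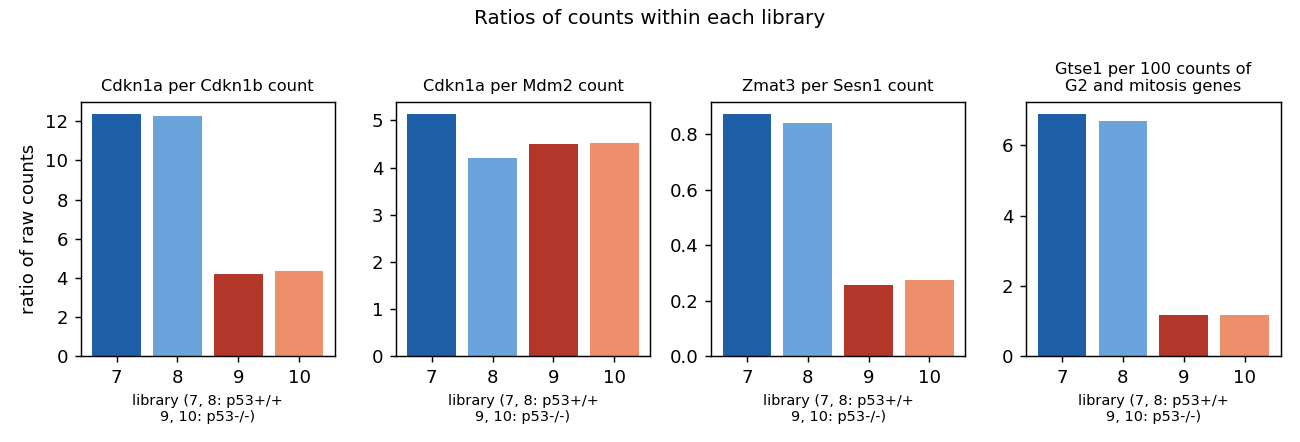
Ratios of raw counts within each library, for libraries 7 and 8 (WT, blue) and 9 and 10 (p53-/-, red), with axes from 0. Cdkn1a per Cdkn1b, Zmat3 per Sesn1 and Gtse1 per 100 counts of the G2 and mitosis genes are lower in both p53-/- libraries, whereas Cdkn1a per Mdm2 overlaps between genotypes.

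Btg2, Gadd45a and Trp53inp1 stood lower in p53-/- without passing in either tool. Btg2 (ENSMUSG00000020423) was at 147 and 219 CPM in WT and at 69.4 and 134 CPM in p53-/-. Replicates differed 1.49-fold in WT and 1.93-fold in p53-/-, so the higher p53-/- library came close to the lower WT library, and the log2 fold change of -0.85 (SE 0.371) had adjusted p = 0.315 in edgeR and 0.137 in DESeq2. It was -0.45 without library 9 and -1.35 without library 10. Gadd45a (ENSMUSG00000036390) was at 44.4 and 48.7 CPM in WT and at 36.2 and 24.8 CPM in p53-/-, with library 10 the lowest. Its log2 fold change was -0.61 (SE 0.226, adjusted p = 0.253, edgeR), and it was -0.91 without library 9 and -0.31 without library 10. Trp53inp1, which encodes a stress protein with roles in autophagy and p53 phosphorylation (ENSMUSG00000028211), was at 87.3 and 131 CPM in WT and at 76.5 and 74.3 CPM in p53-/-. Library 7 was nearer to the p53-/- libraries than to library 8, and the log2 fold change was -0.53 (SE 0.230, adjusted p = 0.312, edgeR). With the libraries scaled to the epithelium markers, the log2 fold changes were -0.37 for Btg2, -0.16 for Gadd45a and -0.09 for Trp53inp1.

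The spread within WT followed the same direction in 4 genes: Btg2, Plk2, Plk3 and Trp53inp1 were each 1.49-fold to 2.80-fold higher in library 8 than in library 7. A list of 12 immediate early genes, such as Fos and Egr1, which are transcribed within minutes of a stimulus, was added after these values were seen. Its summed level was 1074 CPM in library 7 and 2457 in library 8, against 729 and 1176 CPM in p53-/-. The 6 smooth muscle markers summed to 481 CPM in library 7 and 4495 in library 8, against 995 and 699 CPM in p53-/-. Their log2 fold changes ran from -1.89 to -1.30, with only library 8 above the p53-/- libraries in the sum. Of the 6, 0 separated the genotypes, while 24.4% of all genes lay below and 26.4% above in both p53-/- libraries. The part of the immediate early genes or the smooth muscle markers in the spread of the 4 genes was not tested. Gtse1 differed 1.59-fold between the WT libraries in the other direction, with library 7 the higher. Without library 8, the log2 fold changes were -0.54 for Btg2, -2.44 for Plk2, -1.02 for Plk3 and -0.22 for Trp53inp1. For Cdkn1a and Zmat3, whose WT libraries differed 1.03-fold in each case, they were -1.42 and -1.68.

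Per length, the order of the genes also shifted between genotypes. In WT, CPM per kilobase was 177 for Cdkn1a, 66.6 ± 18.5 for Btg2, 26.4 ± 1.75 for Gadd45a, 23.7 ± 1.10 for Sesn1 and 23.3 ± 15.6 for Plk3 (SD, n = 2). Trp53inp1 (16.8 ± 4.72), Plk2 (12.6 ± 5.49), Gtse1 (12.1 ± 3.89), Cdkn1b (11.2 ± 0.317) and Zmat3 (7.08 ± 0.127) followed. From Sesn1 down to Cdkn1b, each gene overlapped the next in this order. The WT libraries of Plk3 (12.2 and 34.4) also lay on both sides of those of Gadd45a (25.2 and 27.6). The order from Gadd45a down to Cdkn1b is thus not resolved. In p53-/-, Sesn1 (23.6 ± 0.788) took the third place, after Cdkn1a and Btg2 (37.0 ± 16.6) and ahead of Gadd45a (17.3 ± 4.56). Cdkn1b (12.0 ± 0.622) moved from the ninth to the fifth place, where it overlapped Trp53inp1 (11.6 ± 0.242). Plk3 (6.06 ± 1.41) overlapped Gtse1 (5.18 ± 0.391), and Zmat3 (2.18 ± 0.042) and Plk2 (1.62 ± 0.072) came last.

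The log2 fold changes of the members' paralogs lay on both sides of 0. Of 17 paralogs listed, 16 were tested. In edgeR with adjustment, 1 (Sesn2) fell (0.193% of all genes) and 0 rose (0.298%). With DESeq2, 3 passed as lower and 3 as higher (3.50% and 5.05% of all genes). The median log2 fold change of the paralogs was -0.23. Plk5 had the most negative value, at 2.41 and 3.63 CPM in WT and 0.701 and 0.199 CPM in p53-/-, and it passed only in DESeq2 (adjusted p = 0.0375, against 0.163 with edgeR). Plk4, the kinase of centriole duplication, was at 7.36 and 5.26 CPM in WT and at 17.5 and 14.5 CPM in p53-/-. Its log2 fold change was 1.34 (adjusted p = 0.134 with edgeR and 0.0119 with DESeq2). Plk1, also among the G2 and mitosis genes, had adjusted p = 0.134 with edgeR and 0.0223 with DESeq2. Within the polo-like kinases, Plk1 and Plk4 were thus above WT in both p53-/- libraries, and Plk2, Plk3 and Plk5 below. Tob1, an antiproliferative relative of Btg2, was at 237 and 270 CPM in WT and at 140 and 122 CPM in p53-/- (log2 fold change -0.95, adjusted p = 0.105 with edgeR and 0.000458 with DESeq2). Gadd45b and Gadd45g had log2 fold changes of 0.74 and -0.33, and neither passed in either tool. The median of the paralogs was 0.29 when libraries were scaled to the epithelium markers.

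**Figure D4:**
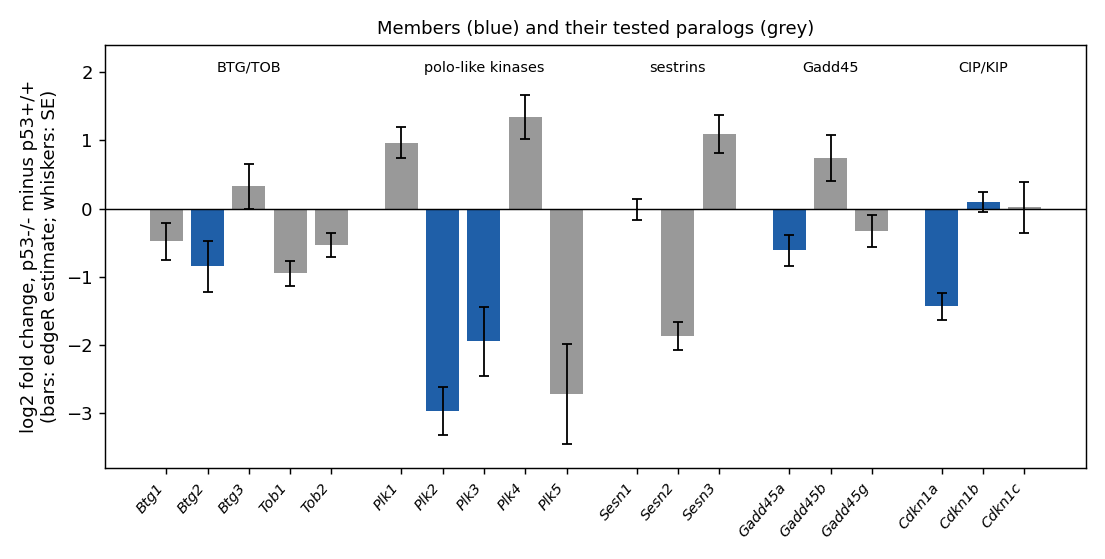
Bars show the edgeR log2 fold change (p53-/- over WT) and whiskers its SE, for the members (blue) and their tested paralogs (grey) in 5 gene families, with no bar visible at Sesn1 (-0.01). Plk1 and Plk4 lie above 0 and Plk2, Plk3 and Plk5 below, and Sesn2 (-1.86) and Sesn3 (1.09) lie on opposite sides of Sesn1.

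Among the 8 CDK inhibitor genes, which include Cdkn1a and Cdkn1b, 0 passed in edgeR after adjustment. At an unadjusted p under 0.05, 2 were lower and 2 higher (7.92% and 10% of all genes). In DESeq2, 2 passed as lower (3.50% of all genes), of which the first was Cdkn1a. The second was Cdkn2b, encoding p15, at 283 and 274 CPM in WT and at 140 and 127 CPM in p53-/- (log2 fold change -1.06, SE 0.176, adjusted p = 0.0819 with edgeR and 9.40e-06 with DESeq2). The list's median log2 fold change was 0.10, and 0.61 with the epithelium scaling. Cdkn2c (0.68) and Cdkn3 (1.29), a phosphatase of CDKs, had the most positive log2 fold changes. Of the 20 genes of the cyclin-CDK machinery, which share Ccnb1, Ccnb2 and Cdk1 with the G2 and mitosis genes, 0 passed in edgeR. At an unadjusted p under 0.05, 3 were lower and 6 higher (7.92% and 10% of all genes), the 6 including these shared genes. In DESeq2, Ccnb1 and Ccnb2 were among the 4 that passed as higher (5.05% of all genes). The median log2 fold change of the 20 genes was 0.22 (0.75 with the epithelium scaling and 0.55 without library 7). The range ran from -0.65 for Ccnd2 and -0.57 for Cdk6, partners in G1, to 1.36 for Cdc25b and 1.41 for Cdc25c, the phosphatases that activate CDK1.

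Other p53 targets gave a scale for the arrest genes. Of 25 listed, 24 were tested and 5 fell in edgeR, namely Eda2r, Phlda3, Ccng1, Psrc1 and Bax (0.193% of all genes). At an unadjusted p under 0.05, 14 were lower and 1 (Fas) higher (7.92% and 10% of all genes). Of the targets, 12 passed as lower in DESeq2 (3.50% of all genes). Their median log2 fold change was -1.0, next to -1.03 for the 10 arrest genes, and it was -0.51 with the libraries scaled to the epithelium markers. Phlda3, an inhibitor of AKT, was at 87.3 and 91.9 CPM in WT and at 1.93 and 1.54 CPM in p53-/-, a log2 fold change of -5.68 (adjusted p = 0.00566, edgeR). Eda2r had 325 and 279 counts in WT and 3 and 1 in p53-/-. Ccng1, encoding cyclin G1, Psrc1 and the death effector Bax fell by 3.32, 3.15 and 2.18 on the log2 scale (adjusted p = 0.0150, 0.0296 and 0.0296, edgeR). Plk2, at -2.96, thus lay between Psrc1 and Bax, whereas Cdkn1a, at -1.43, lay beside Mdm2. At the other end, Fas and Ddb2 had log2 fold changes of 0.92 and 0.79.

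**Figure D5:**
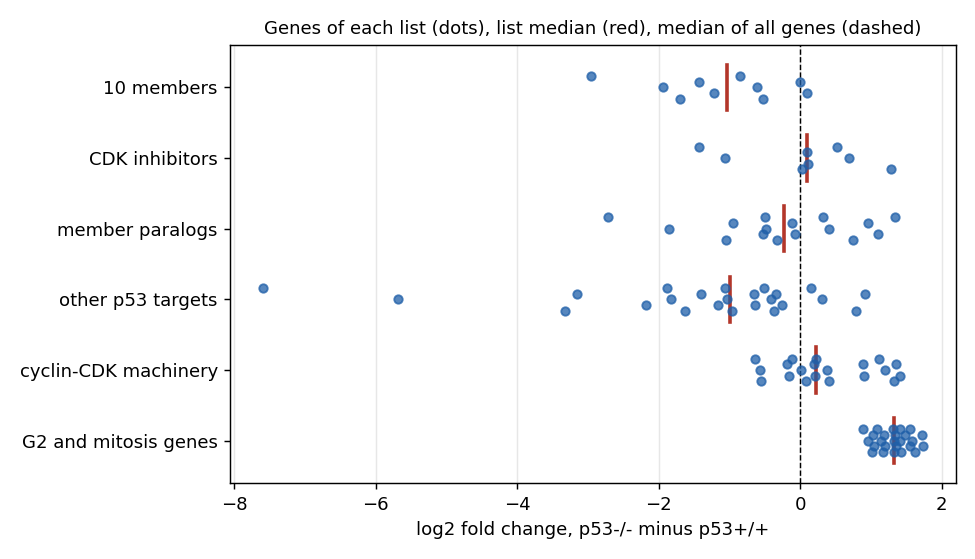
Each dot is the edgeR log2 fold change (p53-/- over WT) of 1 tested gene of a list, the red line is the median of the list and the dashed line the median of all genes tested (-0.01). The medians are -1.03 for the 10 members and -1.0 for the other p53 targets, and 1.33 for the G2 and mitosis genes, and the leftmost dot, Eda2r, rests on 3 and 1 counts in p53-/-.

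The genes whose pattern over the 4 libraries was most like that of Cdkn1a were sought among 7718 protein-coding genes whose average log2 CPM reached 4, by the Euclidean distance between centred log2 CPM. The nearest was Bhlhe40 (distance 0.0838 log2 units), a transcriptional repressor of the circadian system, at 172 and 164 CPM in WT and 58.3 and 65.3 CPM in p53-/-. Crip2 (0.0995), Fhl1 (0.169), Ankrd40cl (0.181) and the tight junction gene Cldn4 (0.201) came next. With 4 libraries in 2 genotypes, this likeness describes mostly a genotype difference of like size, and of the 5 genes only Bhlhe40 passed in edgeR (adjusted p = 0.0478).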

How the data were processed

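Raw counts of reads per gene were deposited by the authors for 4 libraries (poly-A selected RNA, Illumina), with no normalization. The submitters' processing notes name fastp, HISAT2 2.0.5, featureCounts 1.5.0-p3 and DESeq2 1.20.0. Build, annotation and strand of counting are not given in the sources used here. Reads shared with paralogs or overlapping genes could thus have been given to another gene or left uncounted. Overlapping genes lay antisense to Cdkn1a, Gadd45a and Plk3 (at most 81 counts) and on the same strand as Sesn1 (at most 1 count). From these counts, edgeR 4.0.16 in R 4.3.3 was run with TMM, filterByExpr and a threshold of 0.05, two-sided. DESeq2 1.42.0 and the other settings in the closing section were alternatives. Tests were first tested on simulated data. Exon lengths came from GENCODE M21 (91.9% of gene identifiers matched). Columns were assigned to genotypes by name. Nothing in the labels ties libraries to separate animals, so p-values measure the spread between libraries, which differed by more than sampling noise (chi-square per degree of freedom 34.5 in WT and 48.9 in p53-/-). The members and lists were chosen with earlier results of these data known. Named were all members, Trp53, list genes past the threshold, the 2 most positive and 2 most negative fold changes of each list, and the 5 genes nearest to Cdkn1a. Other list genes were named after their values were seen. 1 B cell marker is not reported here.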

Additional observations from a re-analysis of the deposited data

How the results depend on the processing

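The 10 genes kept the sign of their log2 fold change in 132 of 140 refits (14 alternatives for each gene), and the exceptions were all of Sesn1. Its log2 fold change was 0.0403 with upper-quartile factors, 0.0550 with library size only, 0.466 with scaling to the epithelium markers, 0.0331 without a filter on low counts, 0.0597 with at least 10 counts in every library, 0.0317 with the 50 most abundant genes left out, and -0.0476 to 0.0770 with 1 library left out. The number of members past the threshold as lower was 2 in edgeR, beside 31 of all 16094 genes. It was 1 with RLE factors (28 of all genes lower), upper-quartile factors (20) or library size only (20). It was also 1 with the stricter filter (18 of 13863 genes) or the 50 most abundant genes left out (24 of 16044). Plk2 was lost and Zmat3 past the threshold in each of these. With the epithelium scaling 0 members passed (16 of all genes lower), with 4 lower at an unadjusted p under 0.05. At a threshold of 0.01 there were 0 (2 of all genes lower). There were 5 with DESeq2 (563 of 16105 genes) or edgeR's likelihood ratio test (462 of 16094), and 6 without a filter (761 of 27841). No member was past the threshold as higher in any of 16 alternatives. The number of all genes past it, 79, was 49 with upper-quartile factors, 46 with library size only, 149 with the epithelium scaling, 1376 with DESeq2, 1295 with the likelihood ratio test, 2194 without a filter, 42 with the stricter filter, 372 at a threshold of 0.1, 6 at 0.01, and 0 to 1024 with 1 library left out, being 0 without library 10 (1201 at an unadjusted p under 0.05). The epithelium scaling moved the median of all genes to 0.48 on the log2 scale, and the lack of a filter moved it to 0.15. Under the epithelium scaling the log2 fold changes were -2.54 for Plk2, -1.21 for Zmat3 and -0.95 for Cdkn1a, and the list medians were 0.29 for the paralogs, 0.61 for the CDK inhibitors, 0.75 for the cyclin-CDK machinery and -0.51 for the other p53 targets. The median of the CDK inhibitors ran from -0.0439 (without library 10) to 0.345 with 1 library left out. Apart from the changes that follow from the number of libraries, genes or the threshold, the cause was not tested. No paired analysis was possible because the columns carry genotype but not the replicate numbers of the labels. With 2 libraries per genotype, exact tests could not go below p = 0.333.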
